A study of Drosophila melanogaster with 6 samples.

Results

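The large-subunit cytoplasmic ribosomal protein genes of *Drosophila melanogaster* were followed in wing imaginal discs that express Cyclin G without its PEST domain. Members were the genes of the deposited count table whose FlyBase symbol starts with RpL, including the P-stalk genes and the paralogs and leaving out *RpLP0-like* and the mitochondrial genes. This rule took 53 of 17478 genes and used no measured value. The discs, the larval precursors of the adult wings, were dissected from female larvae of the third instar, grown at 25 °C, and each RNA sample pooled 150 of them. The 3 CycGΔP samples carried the *da-Gal4* driver together with the *UAS-CycGΔP* transgene, whereas the 3 control samples were *da-Gal4/+*, with the driver alone. The driver, shared by both groups, makes the yeast activator Gal4 in nearly all cells of the larva, so that CycGΔP expression was not restricted to the wing disc. No mutation of the endogenous *CycG* gene is given for either group, and each replicate of a genotype came from an independent cross.

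The large ribosomal subunit assembles in the nucleolus from rRNAs and many different proteins, which are present in a single copy each except for those of the P-stalk. Assembly factors hold the particle in an inactive form until it reaches the cytoplasm. The finished subunit forms peptide bonds, recruits elongation factors through its stalk and releases the growing chain through a tunnel. In *Drosophila*, losing 1 copy of many of these genes gives the Minute phenotype, with slow growth and short bristles, and wing discs are the tissue in which competition between Minute and wild-type cells has been studied most.

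The deposited libraries summed to between 21853360 and 40059450 counts, and control replicate 2 was the deepest. All values below are CPM, or counts for each 1000000 counts of a library, scaled with edgeR's TMM factors, given for replicates 1, 2 and 3 in this order. Reads of *CycG*, which the transgene and the endogenous gene can both give, reached 1021, 1011 and 899 CPM in CycGΔP discs. Control discs had 722, 788 and 686 CPM, so the groups did not overlap (log2 fold change 0.42, edgeR adjusted p = 0.0909). By quantitative PCR with primers absent from the transgene, the paper found endogenous *CycG* significantly decreased in CycGΔP discs. The 6 wing disc epithelium markers measured summed to between 2011 and 2444 CPM in CycGΔP discs and between 1797 and 2083 CPM in control discs. The 4 adult muscle precursor genes summed to between 119 and 128 CPM against between 102 and 129 CPM, and *trh*, a tracheal marker, had between 69.8 and 85.8 CPM against between 67.6 and 81.6 CPM, so that these overlapped as well. The 3 fat body genes summed to 3640, 5399 and 5095 CPM in CycGΔP discs and to 12355, 1281 and 403 CPM in control discs. Every CycGΔP library thus lay below control replicate 1 and above control replicates 2 and 3. All 4 muscle genes were lower in CycGΔP discs without overlap, which held for 12.1% of all genes tested. They summed to between 31.0 and 40.2 CPM against between 74.5 and 181 CPM. Of 3 male accessory gland genes, *Acp26Aa* and *Acp26Ab* together had between 5.86 and 7.88 CPM in CycGΔP discs and 0 counts in every control library, and *SP* had no count. Both were higher without overlap, against 9.92% of all genes. EdgeR called both (adjusted p = 0.00777 and 0.0164), against 0.691% of all genes called up. The discs came from female larvae, so these counts were not taken as a sign of that gland, and their source was not tested. The 3 haemocyte genes summed to between 19.9 and 125 CPM in CycGΔP discs and overlapped with the controls. In bulk RNA, a different number of cells of a type and a different amount of RNA per cell cannot be told apart, and the part of these tissues in the values below was not tested.

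Most large-subunit genes were read more in CycGΔP discs, by a small amount. Of the 53 members, 50 passed the expression filter and were tested. The log2 fold change was above 0 for 39 of these 50, or 78.0%, against 52.3% of all 9408 genes tested. The median was 0.22 over the members and 0.01 over all genes, with a range from −0.97 for *RpL22* to 0.62 for *RpL5*. At an edgeR adjusted p under 0.05, *RpL5*, *RpL7* and *RpL24-like* rose, while 0.691% of all tested genes were called up. No member fell by this test, against 0.733% of all genes, 1 had an unadjusted p under 0.05 with a lower level, against 8.07%, and DESeq2 called 0 lower. In 28 members every CycGΔP library was above every control library, which held for 9.92% of all genes. In 1 member, *RpLP0*, the order was the reverse, which held for 12.1% of all genes. The unadjusted p was under 0.05 with a higher level for 24 members, against 6.65% of all genes.

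The 3 calls sat close to the threshold. With any 1 of the 6 libraries left out, edgeR called 0 members, while between 15 and 23 had an unadjusted p under 0.05, and over all genes it made between 11 and 78 calls. DESeq2 with all libraries called 15 members up, against 2.37% of the genes with an adjusted p. These 15 included the 3 members called by edgeR, and a DESeq2 fit with shrinkage of fold changes called the same 15, against 2.4% of all genes.

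**Figure D1:**
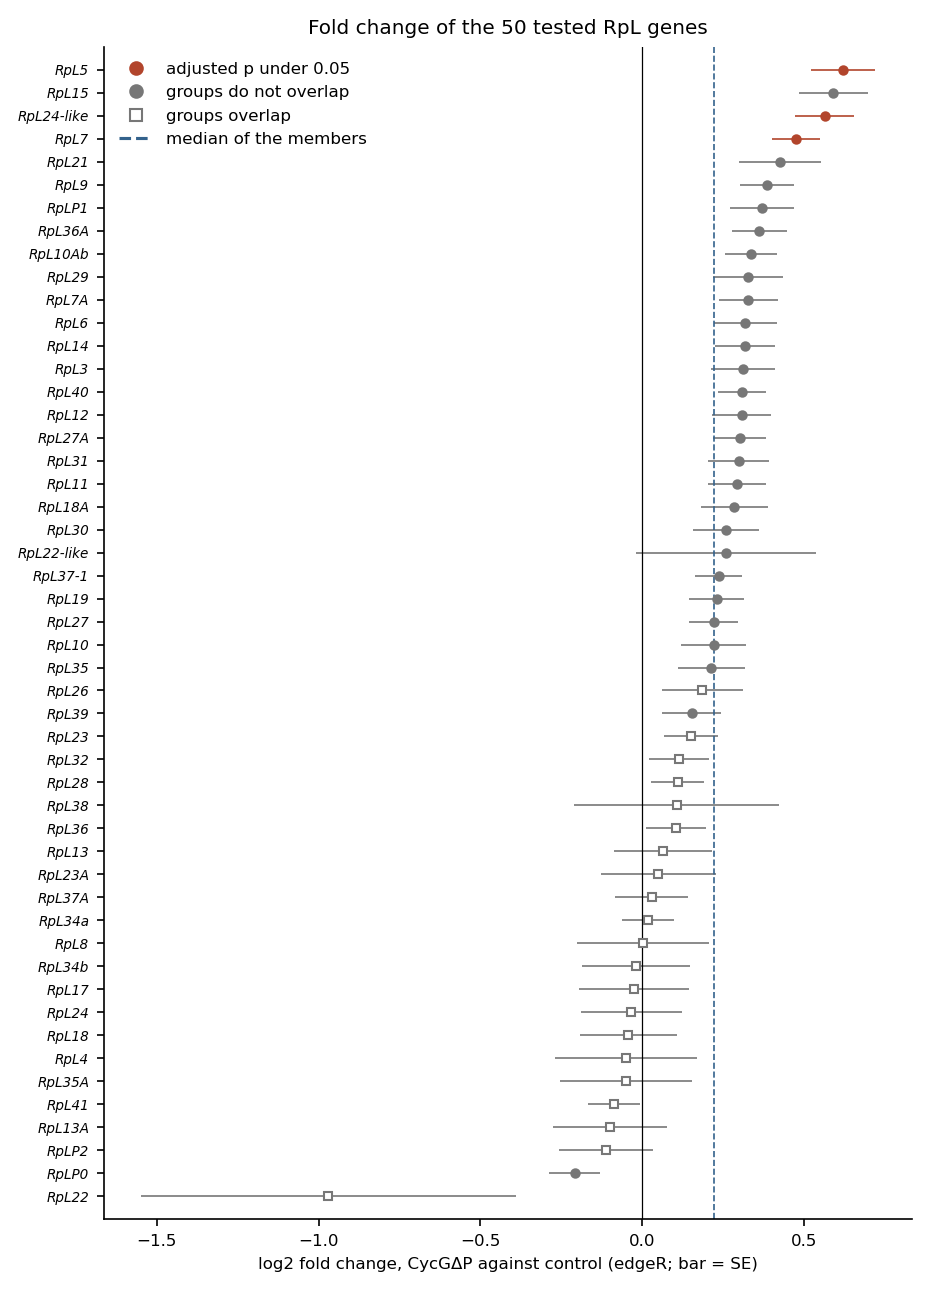
Log2 fold change of CycGΔP against control discs for the 50 tested members, with the standard error (SE) from edgeR as a bar. Red points passed an adjusted p of 0.05, filled points mark members whose groups did not overlap, open squares those that did, and the dashed line is the median of 0.22. Most points lie right of 0, with *RpL22* far to the left and with the widest bar.

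*RpL5* showed the largest difference. It encodes a protein that binds 5S rRNA before both enter the pre-ribosome, and lies on chromosome arm 2L at positions 22532279 to 22536884 (minus strand, dm6 annotation). CycGΔP discs had 6099.8, 5252 and 5494 CPM and control discs had 3908, 3257 and 3795 CPM. Every CycGΔP library was thus above every control library, by 1.54-fold on average (log2 fold change 0.62, SE 0.10, edgeR adjusted p = 0.0432). Its partner in the 5S particle, *RpL11*, had 2222, 2169 and 1888 CPM against 1738, 1601 and 1791 CPM. The groups were again separate, but the difference was smaller and did not pass the test (log2 fold change 0.29, edgeR adjusted p = 0.197).

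*RpL7*, whose product binds rRNA of the large subunit, had 4061, 4148 and 3885 CPM in CycGΔP discs and 3008, 2691 and 3009 CPM in control discs. The CycGΔP libraries had an SD of 134 CPM around a mean of 4031 CPM, and the groups stood well apart (2L, 10201004 to 10202321, plus strand; 1.39-fold, log2 fold change 0.47, SE 0.07, edgeR adjusted p = 0.0431).

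*RpL15*, encoding an rRNA-binding protein of the subunit's core, had 3122, 3148 and 3114 CPM in CycGΔP discs. Control discs had 2292, 1760.4 and 2185 CPM. The 3 CycGΔP libraries were nearly equal, with a coefficient of variation of 0.561% against 13.5% among controls, and all lay above the highest control. The difference of 1.51-fold did not pass the threshold in edgeR (3L, 27267255 to 27268445; log2 fold change 0.59, SE 0.11, adjusted p = 0.063), but did in DESeq2 (adjusted p = 1.12e-05) and in edgeR with a filter of at least 10 counts in every library (adjusted p = 0.0466). By quantitative PCR, the paper reports *RpL15* and *RpL7* as over-expressed in CycGΔP discs. A small nucleolar RNA gene within *RpL15* covers 6.7% of its exons on the same strand.

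*RpL24-like* is named for its resemblance to *RpL24*, but its yeast counterpart is an assembly factor that holds the place of that protein in the precursor and is exchanged for it in the cytoplasm. It had 289, 268 and 235 CPM in CycGΔP discs and 176, 174 and 185 CPM in control discs. The controls were tight, with a coefficient of variation of 3.28%, and all CycGΔP libraries were above them (3R, 11430740 to 11431582, minus strand; 1.48-fold, log2 fold change 0.56, SE 0.09, edgeR adjusted p = 0.045).

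The fifth member by size was *RpL21*, with 2641, 2355 and 2754 CPM against 2069, 1599 and 2111 CPM. Control replicate 2 was low, as it was for *RpL5*, *RpL7* and *RpL15*, and without overlap between groups the difference did not pass the test (log2 fold change 0.42, SE 0.13, edgeR adjusted p = 0.188).

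**Figure D2:**
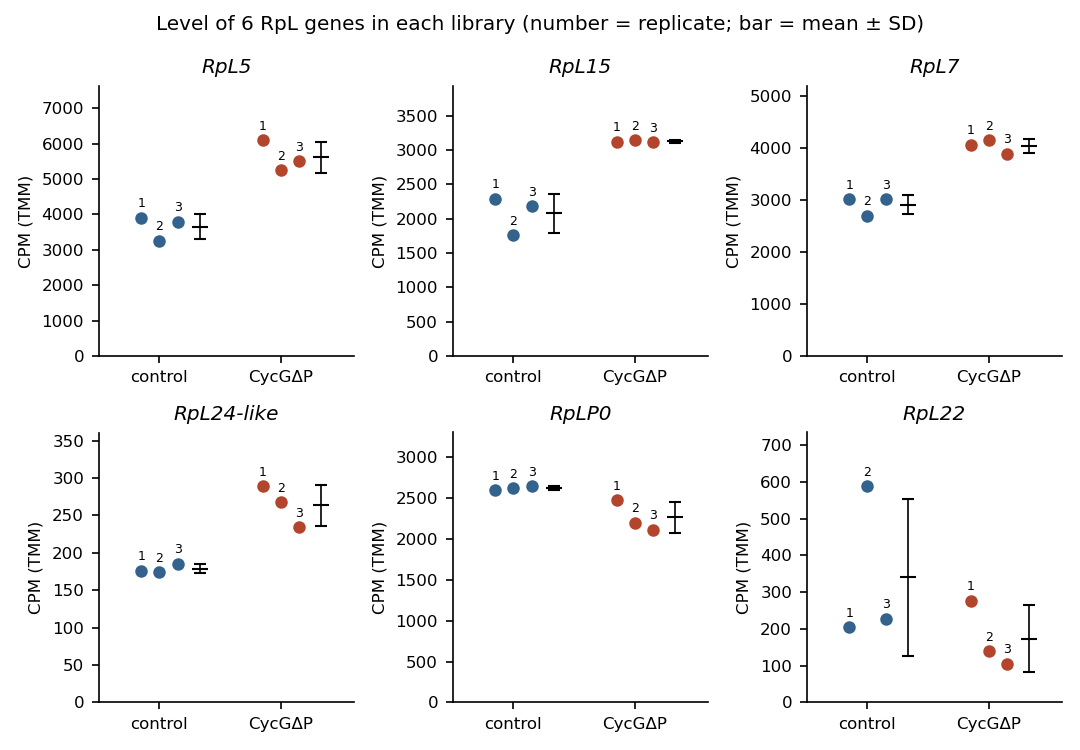
CPM of 6 members in each library, with blue points for control and red for CycGΔP discs, the replicate number above each point, and the mean ± SD beside them. *RpL5*, *RpL15*, *RpL7* and *RpL24-like* were higher in all 3 CycGΔP libraries, *RpLP0* was lower in all 3, and *RpL22* ranged from 204 to 588 CPM among the controls alone.

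Of the 4 stalk genes, none passed the test, 2 were higher without overlap and *RpLP0* was lower without overlap (9.92% and 12.1% of all genes). *RpLP1*, one of the acidic proteins at the tip that contact elongation factors, had 2971, 2692 and 2413 CPM against 2128, 1929.7 and 2198 CPM, without overlap (log2 fold change 0.37, edgeR adjusted p = 0.155). *RpL12*, at the base of the stalk, had 2447, 2484 and 2264 CPM against 2063, 1727 and 2029 CPM, again without overlap (log2 fold change 0.31, edgeR adjusted p = 0.191). The difference between the stalk genes was not tested.

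*RpLP0*, the scaffold on which the acidic proteins sit, had 2475, 2199 and 2114 CPM in CycGΔP discs and 2592, 2619.8 and 2639.9 CPM in control discs. The controls agreed to within a coefficient of variation of 0.916%, and every CycGΔP library lay below them (log2 fold change −0.21, SE 0.08, unadjusted p = 0.0355, edgeR adjusted p = 0.285). *RpLP2*, the second acidic protein, had 1579.6, 1336 and 1214 CPM against 1335, 1759.5 and 1371 CPM. Its groups overlapped, and control replicate 2 was the highest library (log2 fold change −0.11, edgeR adjusted p = 0.751). Without that library the log2 fold change was 0.0093.

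Of the 8 members at the exit tunnel, 6 had a log2 fold change above 0 and 4 were higher without overlap (52.3% and 9.92% of all genes), and none passed an adjusted p of 0.05. *RpL31*, at the tunnel exit, had 1393, 1416 and 1260.5 CPM against 1105, 998 and 1210.0 CPM (log2 fold change 0.30). *RpL19*, also near the exit, had 2866, 2543 and 2442 CPM against 2266, 2114 and 2319 CPM (log2 fold change 0.23). Both were higher in every CycGΔP library, with edgeR adjusted p-values of 0.213 and 0.275.

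*RpL35* and *RpL39* gave the same order with smaller differences. *RpL35*, beside the docking site of the signal recognition particle, had 1627, 1583 and 1494 CPM against 1427, 1164 and 1468 CPM (log2 fold change 0.21). *RpL39*, a very short protein lining the tunnel, had 1339, 1258 and 1316 CPM against 1232, 1040.0 and 1250.5 CPM (log2 fold change 0.15). The lowest CycGΔP library of *RpL39* was barely above the highest control. Without control replicate 2 the log2 fold change was 0.10 for *RpL35* and 0.06 for *RpL39*.

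The other 4 tunnel members overlapped between groups, and in each of them control replicate 2 was the highest control. *RpL26* had 2378, 2157 and 1704 CPM against 1779, 1876 and 1835 CPM (log2 fold change 0.19, or 0.07 without CycGΔP replicate 1 and 0.31 without CycGΔP replicate 3). *RpL23A*, the main docking protein at the exit, had 2413, 2011 and 1560.1 CPM against 1706, 2228 and 1854 CPM (log2 fold change 0.05). Its exons overlap other genes over 48.4% of their length, so its reads could not be fully assigned.

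*RpL4* and *RpL17* form the narrowest part of the tunnel. *RpL4* had 3929.5, 2832 and 2325 CPM against 2760.3, 3787 and 2862 CPM (log2 fold change −0.05). *RpL17* had 1742, 1456 and 1101 CPM against 1346, 1601 and 1434 CPM (log2 fold change −0.03). Within CycGΔP, both genes were highest in replicate 1 and lowest in replicate 3, a spread far wider than the difference between the group means.

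On the face where peptide bonds form and the subunits join, all 4 members had a log2 fold change above 0 and none passed the test. For *RpL8* the value was 0.002, and its sign turned with RLE factors and with library totals alone. *RpL40*, made as a fusion with ubiquitin, had 2041, 2135 and 2161 CPM against 1739, 1588 and 1793 CPM, a clear gap between groups (log2 fold change 0.31, SE 0.07, edgeR adjusted p = 0.119). *RpL3*, which reaches towards the catalytic centre, had 5665, 4521 and 4679 CPM against 3932, 4077 and 3975 CPM, with very tight controls (log2 fold change 0.31, edgeR adjusted p = 0.209, and a log2 fold change of 0.20 without CycGΔP replicate 1).

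*RpL10*, in yeast among the last proteins to join the subunit, had 3258, 3218 and 3189 CPM against 2968, 2372 and 2963 CPM (log2 fold change 0.22). The groups did not overlap, and control replicate 2 lay well below the other controls, without which the log2 fold change was 0.10. *RpL8*, which also lies at the catalytic centre, had 3305, 2577 and 1933 CPM against 2358, 2986 and 2463 CPM. Its highest and lowest libraries were both CycGΔP libraries. *RpL10Ab*, the protein of the mobile L1 stalk that escorts tRNA out of the ribosome, had 3511, 3231 and 3266 CPM against 2723, 2429.7 and 2783 CPM, with no overlap (log2 fold change 0.34, edgeR adjusted p = 0.119).

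The lowest value of all belonged to *RpL22*, which binds rRNA at the surface of the subunit. It had 276, 139 and 106 CPM in CycGΔP discs and 204, 588 and 228 CPM in control discs. Control replicate 2 alone set the mean of its group, the groups overlapped, and the difference did not pass the test (log2 fold change −0.97, SE 0.58, edgeR adjusted p = 0.496). The log2 fold change was −0.33 without control replicate 2, −1.48 without CycGΔP replicate 1 and −0.22 in DESeq2 with a prior. A long non-coding RNA gene covers 34.3% of its exons on the same strand.

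*RpL13A* and *RpL41* were the other members at the low end. *RpL13A* had 1883, 1432 and 1211 CPM against 1457, 1836 and 1561 CPM (log2 fold change −0.10), and followed the pattern of *RpL4*. *RpL41*, which encodes a peptide of only 25 residues, had 3112, 3172 and 3305 CPM against 3372, 3137 and 3690.2 CPM (log2 fold change −0.09). Without control replicate 2 or 3 the *RpL41* value was −0.16 or −0.03, and neither gene passed the test (edgeR adjusted p = 0.821 and 0.635).

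Among the 6 pairs of paralogs, 3 had a partner with hardly any counts. *RpL10Aa* had 0 counts in all 6 libraries, which allows up to between 0.0749 and 0.137 CPM (here without TMM factors) depending on the library. *RpL7-like* and *RpL37-2* had 1 count each over all libraries. Another gene on the same strand covers 98.8% of the exons of *RpL7-like*, and only unambiguous reads were counted. Its count therefore cannot show whether it was expressed in the discs. The partners *RpL10Ab*, *RpL7* and *RpL37-1* were all tested. *RpL37-1* had 2068, 2017 and 1839.5 CPM against 1649.8, 1668 and 1714 CPM, without overlap (log2 fold change 0.24, edgeR adjusted p = 0.196). *RpL22-like*, known as a testis-enriched paralog, had between 0.957 and 1.38 CPM across the 6 libraries, from 210 counts in all. *RpL22* exceeded it per transcript length in every library, by between 91.6 and 688 times.

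The remaining pairs were both expressed. *RpL34a* had 284, 303 and 276 CPM against 295, 262 and 297 CPM (log2 fold change 0.02), and *RpL34b* had 941, 718 and 624 CPM against 690.0, 869 and 755 CPM (log2 fold change −0.02). Neither differed beyond its spread, and the sign of *RpL34a* turned with library totals alone and that of *RpL34b* with upper-quartile factors. *RpL24*, whose product makes a bridge to the small subunit, had 1253, 1075 and 953 CPM against 968, 1344 and 1049 CPM (log2 fold change −0.03). The ratio of *RpL24* to *RpL24-like* per transcript length was between 3.74 and 4.05 in CycGΔP discs and between 5.12 and 7.19 in control discs, so that the groups did not overlap. The paralogs of a pair share sequence, and reads that match both could not be assigned.

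The 23 members outside these role groups and pairs included *RpL15* and ranged from −0.10 to 0.59 in log2 fold change, with a median of 0.22. Of these, 19 were above 0, 12 had no overlap between groups, all with the higher level in CycGΔP discs (52.3% and 9.92% of all genes), and none passed the edgeR test. *RpL38* is singled out here after its values were seen. It had 790.4, 498 and 774 CPM in CycGΔP discs and 793, 383 and 741 CPM in control discs, so that replicate 2 was low in both groups (log2 fold change 0.11, SE 0.32).

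*RpL6* was also picked out for its place, since it lies next to *CycG* on 3R, on the same strand and 437 bases downstream of it. It had 3203, 2835 and 2584 CPM against 2185, 2423 and 2315 CPM, without overlap (log2 fold change 0.32, edgeR adjusted p = 0.196). The part of its position in this value was not tested.

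The spread within each group was shared between members. In 15 of the 50 tested members control replicate 2 was the highest control, and in 32 it was the lowest, leaving 3 in between. Over all tested genes it was the highest in 36.2% and the lowest in 34.2%. The 15 were *RpL3*, *RpL4*, *RpL6*, *RpL8*, *RpL13*, *RpL13A*, *RpL17*, *RpL18*, *RpL22*, *RpL23A*, *RpL24*, *RpL26*, *RpL34b*, *RpL35A* and *RpLP2*.

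In 14 of these 15, the CycGΔP libraries stood in the order replicate 1, 2, 3 from high to low. Among all tested genes, 6.24% had both control replicate 2 as the highest control and this order, against 28.0% of the members. The median log2 fold change was −0.03 over the 15 members and 0.29 over the 32 in which control replicate 2 was lowest. Of the 15, 2 had higher levels in CycGΔP discs without overlap (*RpL3* and *RpL6*), against 25 of the 32. Over all genes split in the same way, the medians were −0.01 and 0.05, and 7.11% and 12.9% were higher without overlap. These comparisons share control replicate 2 with the fold change itself and are given as a description.

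CycGΔP replicate 1 was the highest of its group for 36 members and CycGΔP replicate 3 the lowest for 37, against 34.7% and 26.4% of all genes. Across the 50 members, the deviation of control replicate 2 from the other controls and the log2 ratio of CycGΔP replicate 3 to replicate 1 had a Spearman correlation of −0.86 (Pearson −0.85). Without *RpL22* it was −0.85, and across 9332 genes read in every library it was −0.32. Members are not independent of each other, each library was used for all of them, and control replicate 2 was also the deepest library. The deviation of control replicate 2 had a Spearman correlation of 0.34 with transcript length, and the part of depth or RNA quality was not tested.

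**Figure D3:**
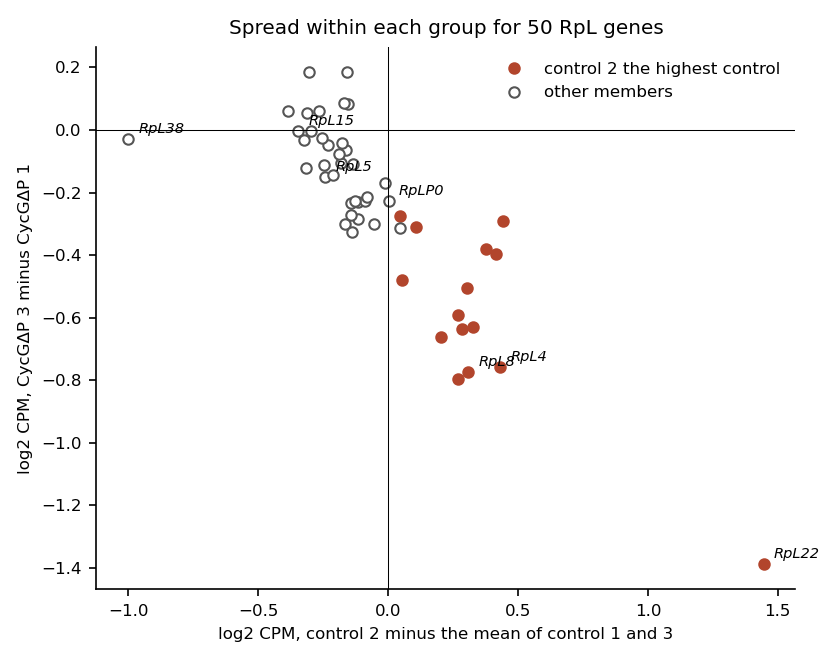
Each point is 1 of the 50 tested members, placed by how far control replicate 2 lay from the mean of controls 1 and 3 (horizontal, log2) and by how far CycGΔP replicate 3 lay from CycGΔP replicate 1 (vertical, log2). The 15 red points, with control replicate 2 as the highest control, all lie below 0 on the vertical axis. *RpL22* lies at the right end of the horizontal axis, at 1.45, and *RpL38* at the left end.

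Levels of different genes were compared as reads per kilobase of the median annotated transcript per 1000000 counts (RPKM). In control discs the median over the 50 members was 2407 RPKM, and 43 of them lay between 1000 and 4000 RPKM. *RpL41* was highest with 10624 ± 867 RPKM (SD, n = 3), followed by *RpL39* with 4077 ± 405, *RpL27A* with 3514 ± 292 and *RpL10* with 3508 ± 434 RPKM. *RpL41* exceeded *RpL39* by 2.61 times, and both have very short transcripts, for which the length correction is least certain.

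At the low end stood *RpL22-like* with 0.897 ± 0.132 RPKM, *RpL24-like* with 231 ± 7.59, *RpL22* with 309 ± 195, *RpL34a* with 469 ± 32.3 and *RpL38* with 904 ± 316 RPKM. Of the 49 pairs of neighbours in this order, 46 had overlapping control libraries. The gaps without overlap were those of *RpL41* above *RpL39*, *RpL38* above *RpL34a* and *RpL24-like* above *RpL22-like*. For *RpL5*, whose annotated transcripts range from 1024 to 3835 bases, the place in the order depended on the transcript, from rank 5 with the shortest to rank 44 with the longest.

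**Figure D4:**
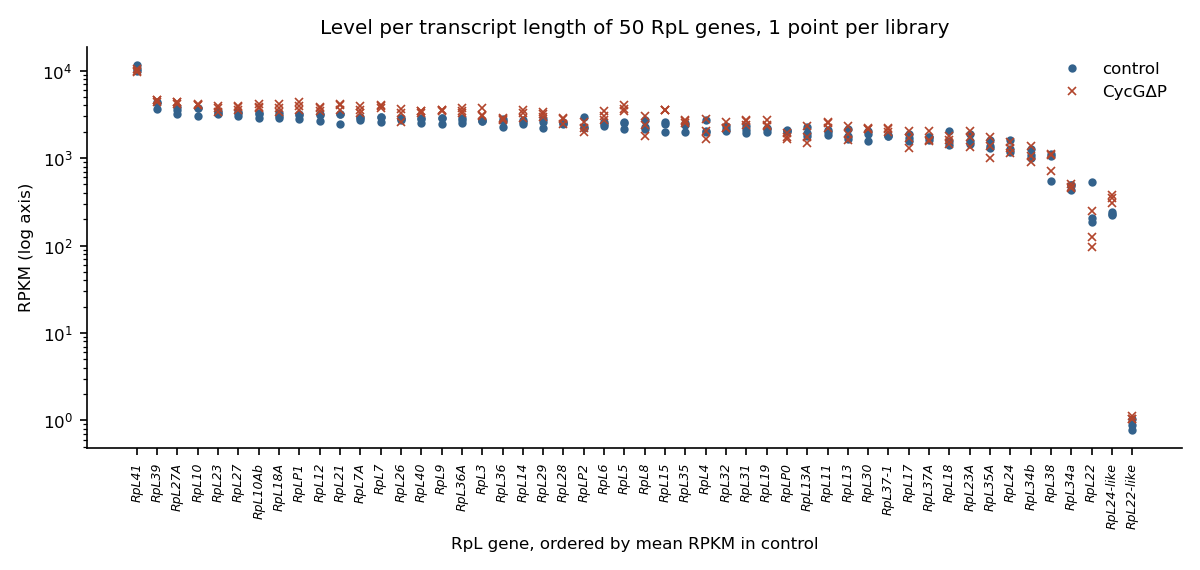
RPKM of the 50 tested members on a log axis, ordered by the mean in control discs, with 1 blue point per control library and 1 red cross per CycGΔP library. Most members lie between 1000 and 4000 RPKM, *RpL41* stands above them, and *RpL38*, *RpL34a*, *RpL22*, *RpL24-like* and *RpL22-like* lie below.

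Summed over the 53 members, the level was 110614, 100519 and 94997 CPM in CycGΔP discs and 87204, 85826 and 89964 CPM in control discs. All CycGΔP libraries were above all controls, and the mean was 1.16 times higher. As a share of the deposited counts, the members took 10.8%, 9.68% and 9.51% against 8.81%, 8.73% and 9.29%. CycGΔP replicate 3 was thus closest to the controls, and the gap to control replicate 3 was small.

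The small subunit was represented by 36 genes, of which 33 were tested, and *RpS10b* and *RpS12* were not analysed here. Their median log2 fold change was 0.26, with 29 above 0 and 22 higher without overlap (52.3% and 9.92% of all genes), while *RpS3A* rose and *RpS15Ab* fell, against 0.691% and 0.733% of all genes called in these directions (log2 fold change 0.58 and −0.73, edgeR adjusted p = 0.0329 and 0.021). Their sum was 71567, 69473 and 65597 CPM against 58706, 55058 and 59827 CPM, or 1.19 times higher. The ratio of summed large-subunit to small-subunit levels was 1.546, 1.447 and 1.448 in CycGΔP discs and 1.485, 1.559 and 1.504 in control discs. It overlapped between the groups, and it leaves out both small-subunit genes not analysed here.

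**Figure D5:**
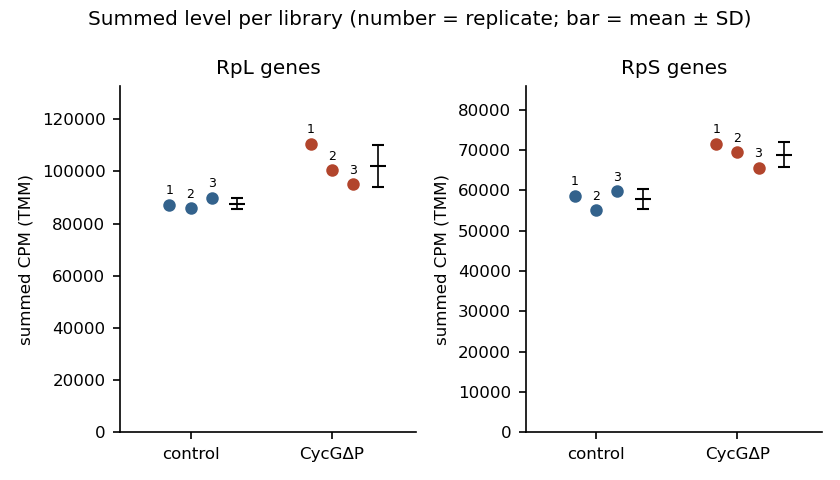
CPM summed over the 53 large-subunit genes (left) and the 36 small-subunit genes in the table (right) in each library, with the replicate number above each point and the mean ± SD beside it. Both sums were higher in all 3 CycGΔP libraries, and in both panels CycGΔP replicate 3 lies nearest to the controls.

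Genes of ribosome assembly were looked at beside the large-subunit genes, and the list was not limited to factors of the large subunit. Of 18 tested assembly factor genes, 17 had a log2 fold change above 0 (52.3% of all genes), with a median of 0.21. *Non1* and *RpL24-like* rose, against 0.691% of all genes, and *RpL24-like* is also a member already counted above. *Non1*, a nucleolar GTPase whose yeast counterpart is needed for pre-ribosomes, had 1468, 1468 and 1221 CPM in CycGΔP discs and 690.1, 708 and 616 CPM in control discs. Its fold change exceeded that of each tested large-subunit gene, and its groups were far apart (log2 fold change 1.05, SE 0.10, edgeR adjusted p = 0.014). The other 16 lay between −0.16 and 0.30. With 1 library left out, edgeR called between 0 and 1 of these factors, and between 0 and 1 of the small-subunit genes.

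Among 14 regulators and sensors of ribosomal protein genes, edgeR called none, against 0.691% of all genes up and 0.733% down. In 2 of them the unadjusted edgeR p was under 0.05 with a higher level, against 6.65% of all genes. DESeq2 called 1 higher, against 2.37%, and 5 were higher without overlap, against 9.92%. The log2 fold change was above 0 for 10 of the 14, against 52.3% of all genes. It was below 0 for *Ilp8* (−0.54, from few counts), *GstD1* (−0.14), *Dref* (−0.03) and *M1BP* (−0.02). The stress-signalling gene *puc* was at 0.13, with overlap. The genes named next were chosen afterwards, all had a value above 0, and they do not stand for the list. *Xrp1*, a transcription factor induced in Minute cells, had 648, 526 and 607 CPM against 451, 488 and 445 CPM, without overlap (log2 fold change 0.37, edgeR adjusted p = 0.15). Its partner *Irbp18* had 18.7, 19.2 and 23.1 CPM against 16.1, 11.9 and 14.3 CPM, also without overlap (log2 fold change 0.53, edgeR adjusted p = 0.15). *Myc*, an activator of ribosome production, had 151, 359 and 169 CPM against 161, 138 and 124 CPM, where only CycGΔP replicate 2 stood out.

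The members were scattered over the genome, with 13 on 2L, 13 on 2R, 10 on 3L, 11 on 3R and 6 on X. The median log2 fold change was 0.33 over the 12 tested on 2L, 0.24 over the 12 on 2R, 0.15 over the 10 on 3L, 0.07 over the 10 on 3R and 0.16 over the 6 on X. Of the members, 21 overlap another gene on exons, 7 on the same strand and 17 on the opposite strand, some on both. The 30 tested members free of such overlap had a median of 0.22 and the 20 with it one of 0.19. Per the study's methods, the libraries were made with a stranded kit. Whether strand was used in the counting is not given in the sources used here, so reads in these overlaps could not be assigned with certainty.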

How the data were processed

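Members and lists were chosen with earlier results of these data known. Per the study's methods, the authors aligned single reads of 50 bases to dm6 with TopHat2 2.0.10, counted unambiguously mapped reads on Ensembl genes and deposited the whole-number counts unscaled. A second table the authors deposited holds a signal, the count over 1 DESeq2 size factor for each library, used only to check those factors. Size factors recomputed from the counts were equal to them. No value column was left without a sample.

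Groups and replicate numbers came from the labels. Symbols, coordinates and transcript lengths came from a dm6 annotation, and 3 members with older identifiers were named through the study's own table. The test was edgeR's, version 4.0.16 under R 4.3.3 (TMM, expression filter with a minimum count of 10, robust quasi-likelihood fit, no covariate) on the counts of all genes, with Benjamini-Hochberg adjustment over 9408 genes. The common biological coefficient of variation was 30%. DESeq2 1.42.0, limma 3.58.1 (voom), other scalings, other filters, a block on the replicate number and leaving out each library were alternatives. The fits were tested on simulated data, with changes larger than those of nearly all genes described above. That test therefore did not examine small differences. With 3 against 3 libraries, an exact two-sided permutation test of 1 value cannot go below p = 0.1. Replicates of a group differed beyond sampling noise (chi-square per gene of at least 43.6). The limit of a count of 0 was set at 3 counts per library and covers counting error only. Genes named were the members called, *RpL5*, *RpL7* and *RpL15*, the 5 highest and 5 lowest members by log2 fold change, 5 role groups and 6 pairs of paralogs. Others are named as chosen afterwards, by place in the order of levels, or in a list of a pattern. Promoter and protein sequences were not analysed here.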

Additional observations from a re-analysis of the deposited data

How the results depend on the processing

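The median log2 fold change of the large-subunit genes stayed above 0 under each alternative run, between 0.15 and 0.25, both of them fits with 1 library left out (control replicate 2 and CycGΔP replicate 3). The number of members called, 3 by edgeR, was 1 with upper-quartile factors, 0 with library totals alone, 0 without the expression filter, 0 at an adjusted p under 0.01, 4 with at least 10 counts in every library (*RpL15* was added), 15 with DESeq2 with or without a prior, and 0 (from 0 to 0) with a library left out. With *RpL5*, *RpL7* and *RpL24-like* the adjusted p reached 0.181, 0.171 and 0.195 at most, the cause of which was not tested. Over all genes, library totals alone gave 54 genes called up and 101 down, against 65 and 69, and a median of −0.05.

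Deviations from the group means did not go together in same-numbered libraries, with correlations of −0.103, −0.182 and −0.134. Such deviations sum to 0 within a group, so these values cannot settle whether the replicate numbers pair the samples. With the replicate number as a block, 0 large-subunit genes, 0 small-subunit genes and 0 assembly factors were called (2 genes in all), and *RpL8* was at −0.025.

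The number of small-subunit genes called, 2 by edgeR, was 13 with both DESeq2 fits and between 0 and 1 with a library left out, and their median ranged from 0.19 to 0.30. For the assembly factors it was 1 with library totals alone, 1 without the filter and between 0 and 1 with a library left out. For the regulators it was 1 with both DESeq2 fits. The summed level of the large-subunit genes exceeded that of controls by 14379 CPM, and by between 10094 and 17902 CPM with a library left out. The median RPKM was 2733 with the shortest and 1944 with the longest transcripts, an alternative chosen after seeing the data.

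Members with a fold change near 0 changed sign. *RpL8* was at −0.0018 with RLE factors, −0.057 with library totals, −0.020 without the filter, −0.013 and −0.010 with DESeq2 without and with a prior, and −0.024 with voom. *RpL34a* was at −0.040 with library totals and −0.0032 without the filter, *RpL23A* at −0.010 with library totals and *RpL34b* at 0.00093 with upper-quartile factors. With a library left out, the range was −0.21 to 0.18 for *RpL8*, −0.055 to 0.047 for *RpL34a*, −0.12 to 0.20 for *RpL23A*, −0.21 to 0.11 for *RpL34b*, −0.29 to 0.11 for *RpL4*, −0.20 to 0.13 for *RpL17*, −0.15 to 0.10 for *RpL24*, −0.30 to 0.036 for *RpL13A* and −0.23 to 0.0093 for *RpLP2*.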

Other observations

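The study's primer list holds an oddity that touches *RpL5* and *RpL15*, on chromosome arms 2L and 3L. The pair named for *RpL15* and the pair named for the gene body of *RpL5* carry the same letters. In the paper, quantitative PCR measured *RpL15* RNA in the discs and the gene body of *RpL5* in immunoprecipitated chromatin. They are shown here because transcripts of these genes were among those with the largest differences above.
Forward primer, both names: ccgaccgagaagaagacaggg
Reverse primer, both names: ctcactacaacgatggcaaggc
No genome sequence was used here to place them, and the primers played no part in the counts.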
